A study of Mus musculus with 33 samples.

Results

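The genes described here are 9 mouse genes of the megakaryocyte and platelet programme (Pf4, Ppbp, Itga2b, Gp9, Gp1bb, Gp6, Treml1, Nfe2 and Tubb1), taken by name from a table of 25239 genes and followed through all 13 RNA libraries of a study of added Runx1 in endothelial cells. Only Pf4 and Itga2b had an RPKM above 1 (reads scaled to gene length and to the authors' library size) in all 13 libraries. Nfe2 was lower but had at least 13 reads in each. Ppbp, Nfe2 and Gp9 had an RPKM above 1 in the E13.5 Ctrl library. Nfe2 and Ppbp also did in E13.5 Runx1 libraries. Tubb1, Treml1, Gp1bb and Gp6 stayed below an RPKM of 1 in every library.

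Megakaryocytes are the large marrow and fetal liver cells that shed platelets, and they arise from blood progenitors that embryonic hemogenic endothelium produces. RUNX1 is needed for that endothelial step and again for megakaryocyte maturation, where it acts with GATA1, FLI1 and NF-E2. The 9 genes cover 3 layers of that programme. Pf4 and Ppbp encode chemokines packed into platelet alpha granules. Itga2b, Gp9, Gp1bb, Gp6 and Treml1 encode surface proteins for fibrinogen, von Willebrand factor, collagen and activation signals. Nfe2 encodes the transcription factor subunit of late megakaryocyte maturation, and Tubb1 the beta-tubulin of the platelet's marginal band.

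PolyA RNA was sequenced from endothelial cells sorted as CD41-CD45-Ter119-CD31+VEC+cKIT lo/+. CD41 is the product of Itga2b, so cells with that protein on the surface were gated out before any library was made. At E9.5 (whole embryo, strain C57BL/6J-129Sv/J x B6C3F1, dams superovulated) there were 2 1Runx1 libraries (genotype Cre; CKI/+) and 2 Ctrl libraries (CKI/+). At E13.5 (whole fetus, C57BL/6J-129Sv/J) there were 2 1Runx1 libraries (Cre; CKI/+), 2 2Runx1 libraries (Cre; CKI/CKI) and 1 Ctrl library (labelled CKI/CKI; CKI/+). From the liver of adult mice of the same strain, aged 4 to 6 weeks, there were 2 2Runx1 libraries (Cre; CKI/CKI) and 2 Ctrl libraries (labelled CKI/CKI; CKI/+). All groups, Ctrl included, had tamoxifen at 2 mg, injected into the pregnant females 24 hours before harvest or given to the adults by gavage. The labels do not name the Cre driver or spell out CKI. The Ctrl genotypes list no Cre, so Cre and added Runx1 cannot be told apart. Whether replicates are separate animals or litters is not in the labels, and every p-value here reflects the spread between libraries, which may be technical.

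The 13 libraries held 37754246 to 44540403 reads in genes, recovered from the RPKM values. Runx1 itself was at 14.9 and 16.2 RPKM in E9.5 1Runx1 libraries, against 0.915 and 0.904 RPKM in E9.5 Ctrl libraries. It was at 28.9 and 23.7 RPKM in E13.5 1Runx1 libraries and 22.7 and 25.2 RPKM in E13.5 2Runx1 libraries, against 1.37 RPKM in the E13.5 Ctrl library. In liver it was at 78.1 and 78.4 RPKM in 2Runx1 libraries, against 1.19 and 1.53 RPKM in Ctrl libraries. Runx1 was thus high in every library labelled 1Runx1 or 2Runx1 and low in every Ctrl library, and the E13.5 1Runx1 and 2Runx1 groups overlapped in it. The endothelial genes Pecam1 and Cdh5, whose products were used in the sort, had at least 144 and 108 RPKM in every library.

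Promoters of 4 genes are shown because their genes stand for the chromatin patterns described further on: Pf4 (an ATAC peak over the start site in every group), its neighbour Ppbp (none in any group), Itga2b (a start-site peak in some groups) and Gp9 (the only promoter of the 8 available with a RUNX match). Each runs 5′ to 3′ along the gene, from 250 bases before to 50 after the start, from RefSeq on GRCm38.p6. Capitals mark matches, on either strand, to the letters searched. For GATA factors these were AGATAA and also the variant TGATAA. For RUNX factors they were TGTGGT and also the variant TGCGGT. For ETS factors they were CCGGAA and also the variant AGGAAG. NF-E2 and AP-1 share TGANTCA, and GTCTAG was searched for SMAD factors. No match in the promoters shown overlapped another.
Pf4, chr5:90772185-90772484, + strand: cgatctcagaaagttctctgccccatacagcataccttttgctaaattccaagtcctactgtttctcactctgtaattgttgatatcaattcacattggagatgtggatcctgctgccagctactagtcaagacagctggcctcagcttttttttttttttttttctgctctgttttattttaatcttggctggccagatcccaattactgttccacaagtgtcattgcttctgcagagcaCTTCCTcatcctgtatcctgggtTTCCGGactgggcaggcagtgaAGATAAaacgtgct
Ppbp, chr5:90768268-90768567, + strand: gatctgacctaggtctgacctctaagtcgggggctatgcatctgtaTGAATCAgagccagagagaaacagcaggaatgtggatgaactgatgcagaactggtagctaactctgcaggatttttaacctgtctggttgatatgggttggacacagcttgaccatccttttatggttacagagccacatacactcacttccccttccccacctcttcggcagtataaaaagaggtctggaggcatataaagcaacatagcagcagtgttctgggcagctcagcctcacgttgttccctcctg
Itga2b, chr11:102469834-102470133, - strand: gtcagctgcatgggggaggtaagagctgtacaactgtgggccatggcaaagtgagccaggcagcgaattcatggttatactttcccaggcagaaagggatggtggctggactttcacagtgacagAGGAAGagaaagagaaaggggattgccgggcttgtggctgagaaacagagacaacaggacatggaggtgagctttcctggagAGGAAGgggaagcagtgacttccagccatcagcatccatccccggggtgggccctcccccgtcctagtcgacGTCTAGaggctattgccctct
Gp9, chr6:87777820-87778119, + strand: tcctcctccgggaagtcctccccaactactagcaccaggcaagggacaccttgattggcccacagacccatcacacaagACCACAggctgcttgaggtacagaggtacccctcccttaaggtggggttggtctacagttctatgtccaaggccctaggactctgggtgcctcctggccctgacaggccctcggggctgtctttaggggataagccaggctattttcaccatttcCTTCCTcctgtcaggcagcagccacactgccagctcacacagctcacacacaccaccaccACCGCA

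RefSeq promoters were found for 8 of the 9 genes. ETS letters occurred in 5 of the 8 (Pf4, Itga2b, Gp9, Gp1bb and Tubb1), against 45.2% of 32851 promoters of the same length. GATA letters occurred in 2 (Pf4 and Gp6; 18.6% of all promoters), NF-E2 or AP-1 letters in 2 (Ppbp and Gp1bb; 7.81%), RUNX letters in 1 (Gp9, with 2 matches; 22.4%) and SMAD letters in 1 (Itga2b; 8.37%). The Treml1 promoter held none of these letters. The 2 Gp9 matches began 171 bases before the start and at base 45 after it, both on the opposite strand. In Pf4 the ETS letters lay 9 bases before and 15 bases after the start, and the GATA letters 37 bases after it, all under the ATAC peak. A match is a description of letters, not of binding.

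Differences between groups were tested with limma on log2(RPKM + 1), with Benjamini-Hochberg adjustment over the 12546 genes that reached an RPKM of 1 in 2 or more libraries, and called at an adjusted p under 0.05. Pf4, Itga2b, Ppbp and Nfe2 were tested. Ppbp and Nfe2 passed only through E13.5 libraries, and the other 5 genes did not pass, so those 5 are given by their RPKM and reads alone. The added 1 shrinks fold changes of genes at low levels.

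Pf4, platelet factor 4, was the most abundant of the 9 genes in liver, E13.5 2Runx1 and E13.5 Ctrl libraries, and Itga2b at E9.5. Pf4 had 1.26 and 1.36 RPKM in E9.5 1Runx1 libraries, against 1.33 and 1.16 RPKM in E9.5 Ctrl libraries. It had 8.68 and 6.34 RPKM in E13.5 1Runx1 libraries and 14.6 and 8.72 RPKM in E13.5 2Runx1 libraries, against 16.1 RPKM in the E13.5 Ctrl library. In liver it had 25.8 and 27.1 RPKM in 2Runx1 libraries, against 31.5 and 37.7 RPKM in Ctrl libraries. All E13.5 Runx1 libraries lay below the E13.5 Ctrl library, the liver groups did not overlap, and the E9.5 groups did. Pf4 fell in E13.5 1Runx1 relative to Ctrl by 1.02 ± 0.24 on the log2 scale (SE, limma adjusted p = 0.0255). Its log2 difference was -0.48 in E13.5 2Runx1 (limma adjusted p = 0.416), -0.37 in liver 2Runx1 (95% interval -0.80 to 0.06, adjusted p = 0.201) and 0.04 in E9.5 1Runx1 (95% interval -0.39 to 0.47, adjusted p = 0.975). The E13.5 2Runx1 value was -0.82 without 2Runx1 replicate 1 (limma adjusted p = 0.0511) and -0.14 without replicate 2 (adjusted p = 0.834). In liver 2Runx1, Pf4 was called lower with only the liver libraries (-0.37, limma adjusted p = 0.0445) and with a replicate block (-0.37, adjusted p = 0.0337). In bulk RNA of sorted cells, fewer cells of a type and less RNA per cell cannot be told apart.

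Ppbp, pro-platelet basic protein, lies 2372 bases upstream of Pf4 on chromosome 5 and followed another course. It had 0.0401 and 0 RPKM in E9.5 1Runx1 libraries, against 0.0678 and 0.0421 RPKM in E9.5 Ctrl libraries, which is 0 to 3 reads in each. It had 0.971 and 0.190 RPKM in E13.5 1Runx1 libraries and 1.17 and 1.47 RPKM in E13.5 2Runx1 libraries, against 4.64 RPKM in the E13.5 Ctrl library, where 246 reads were counted. In liver it had 0.155 and 0.0287 RPKM in 2Runx1 libraries, against 0.144 and 0.0840 RPKM in Ctrl libraries, which is 1 to 6 reads. Ppbp was thus well above its 3-read limit only at E13.5, and all 4 E13.5 Runx1 libraries lay below the Ctrl library. The log2 difference was -1.88 ± 0.23 in E13.5 1Runx1 (SE, limma adjusted p = 0.00161) and -1.28 ± 0.23 in E13.5 2Runx1 (adjusted p = 0.0578). The ratio of Pf4 to Ppbp RPKM was 8.95 and 33.3 in E13.5 1Runx1 libraries and 12.5 and 5.93 in E13.5 2Runx1 libraries, against 3.48 in the E13.5 Ctrl library. The 2 chemokine genes therefore did not keep 1 ratio across the E13.5 libraries. In liver, where Ppbp had few reads, the ratio was 166.5 and 944 in 2Runx1 libraries, against 218.2 and 448.4 in Ctrl libraries.

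**Figure D1:**
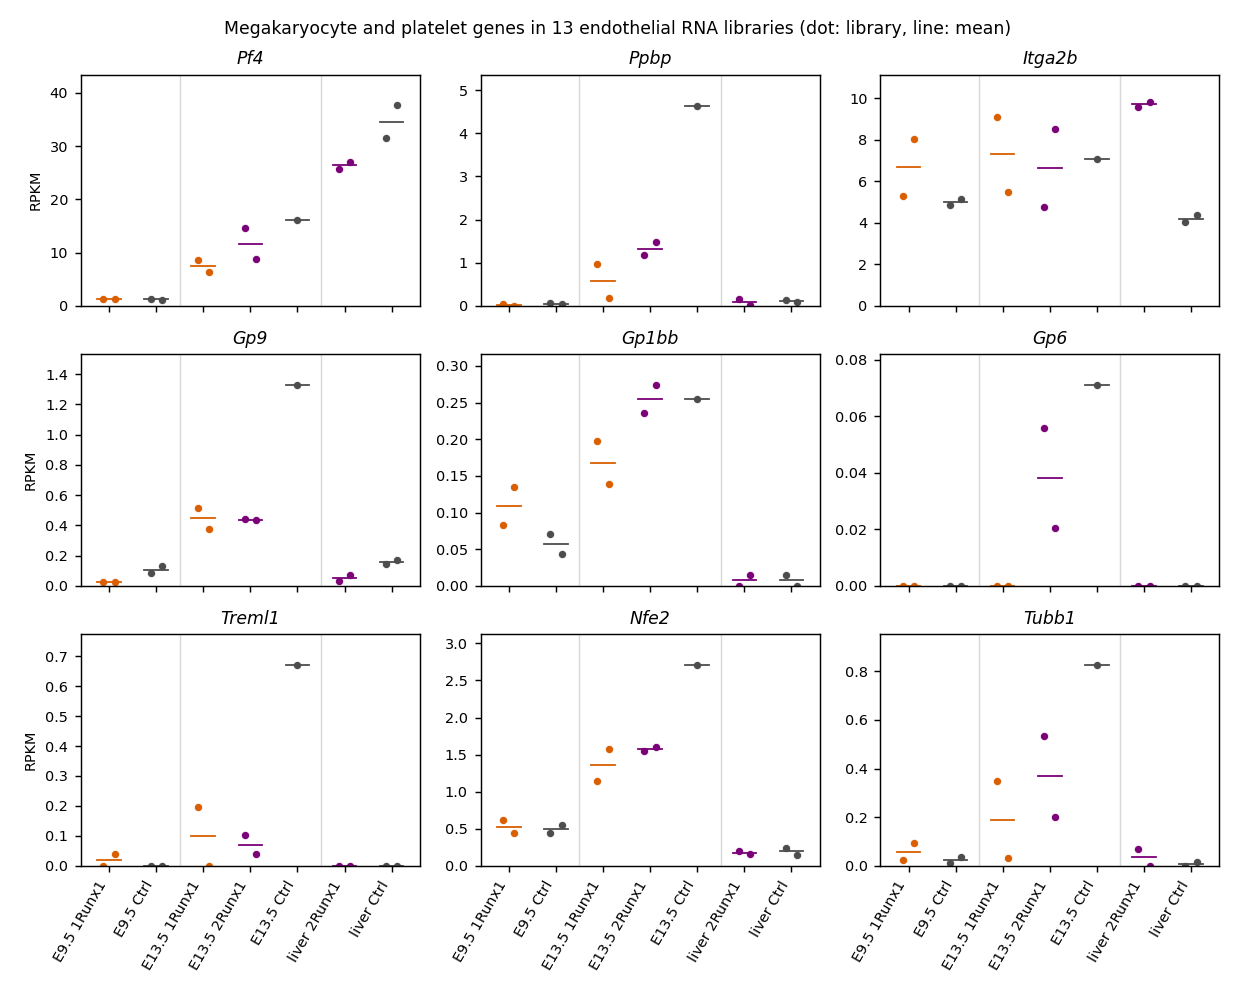
RPKM (linear axis from 0) of the 9 genes in each of the 13 RNA libraries, by group, with a dot for a library and a line for the group mean; each panel has its own scale. Pf4 is highest in liver (25.8 to 37.7 RPKM), Ppbp, Gp9, Treml1, Nfe2 and Tubb1 are highest in the single E13.5 Ctrl library, and Itga2b is between 4.03 and 9.84 RPKM throughout.

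Itga2b encodes the alphaIIb chain (CD41) of the fibrinogen receptor, an integrin already present on early blood progenitors. It had 5.29 and 8.06 RPKM in E9.5 1Runx1 libraries, against 4.88 and 5.15 RPKM in E9.5 Ctrl libraries. It had 9.09 and 5.51 RPKM in E13.5 1Runx1 libraries and 4.76 and 8.54 RPKM in E13.5 2Runx1 libraries, against 7.10 RPKM in the E13.5 Ctrl library. In liver it had 9.60 and 9.84 RPKM in 2Runx1 libraries, against 4.03 and 4.39 RPKM in Ctrl libraries. The transcript was present in every library (444 to 1517 reads) although cells carrying the protein had been gated out. Groups overlapped at E13.5, and replicates of 1 Runx1 group differed there by more than the group means did. Itga2b rose in liver 2Runx1 relative to liver Ctrl by 1.04 ± 0.25 on the log2 scale (SE, limma adjusted p = 0.0117). With any 1 of the 4 liver libraries left out, this difference was 0.99 to 1.09 and the adjusted p 0.0514 to 0.0754. Its log2 difference was 0.33 in E9.5 1Runx1 (95% interval -0.23 to 0.88), 0.00 in E13.5 1Runx1 (-0.68 to 0.68) and -0.13 in E13.5 2Runx1 (-0.81 to 0.55).

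The genes of the von Willebrand factor receptor, Gp9 and Gp1bb, and of the collagen receptor, Gp6, were near their detection limits outside E13.5. Gp9 had 22 and 16 reads in E13.5 1Runx1 libraries (0.517 and 0.376 RPKM) and 18 and 16 reads in E13.5 2Runx1 libraries (0.440 and 0.433 RPKM), against 57 reads in the E13.5 Ctrl library (1.33 RPKM). Elsewhere Gp9 had 1 to 5 reads per library. Gp1bb had 20 and 14 reads in E13.5 1Runx1 libraries and 23 and 24 reads in E13.5 2Runx1 libraries, against 26 reads in the E13.5 Ctrl library. At E9.5 it had 8 and 12 reads in 1Runx1 libraries, against 6 and 4 reads in Ctrl libraries, and in liver 0 or 1 read per library. Gp1bb overlaps Septin5 by 593 bases, and Septin5 had 145 to 267 reads per embryonic Runx1 library, against 100 to 230 in embryonic Ctrl libraries. Reads of Gp1bb are therefore uncertain. Gp6 had 3 and 1 reads in E13.5 2Runx1 libraries, against 4 reads in the E13.5 Ctrl library, and 0 reads in all other libraries, where 3 reads would be 0.0536 to 0.0813 RPKM.

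Treml1 encodes TLT-1, an alpha-granule receptor that reaches the surface of activated platelets. It had 12 and 0 reads in E13.5 1Runx1 libraries and 6 and 2 reads in E13.5 2Runx1 libraries, against 41 reads in the E13.5 Ctrl library (0.669 RPKM). At E9.5 it had 0 and 2 reads in 1Runx1 libraries, against 0 in both Ctrl libraries, and it had 0 reads in the 4 liver libraries. Tubb1 had 34 and 3 reads in E13.5 1Runx1 libraries and 50 and 17 reads in E13.5 2Runx1 libraries, against 81 reads in the E13.5 Ctrl library (0.825 RPKM). It had 8 or fewer reads in each E9.5 and liver library. For both genes the replicates of a Runx1 group differed several times over.

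Nfe2 was also highest in the E13.5 Ctrl library, with more reads. It had 0.614 and 0.437 RPKM in E9.5 1Runx1 libraries, against 0.438 and 0.546 RPKM in E9.5 Ctrl libraries. It had 1.15 and 1.58 RPKM in E13.5 1Runx1 libraries and 1.54 and 1.60 RPKM in E13.5 2Runx1 libraries, against 2.71 RPKM in the E13.5 Ctrl library. In liver it had 0.200 and 0.156 RPKM in 2Runx1 libraries, against 0.246 and 0.141 RPKM in Ctrl libraries. E13.5 Runx1 libraries all lay below the Ctrl library, and groups overlapped at E9.5 and in liver. The log2 difference was -0.66 ± 0.14 in E13.5 1Runx1 (SE, limma adjusted p = 0.0163) and -0.53 ± 0.14 in E13.5 2Runx1 (adjusted p = 0.167).

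Counted over the 4 genes tested, 3 (Ppbp, Pf4 and Nfe2) were called lower in E13.5 1Runx1 than in Ctrl, in a comparison that called 10.4% of all genes tested in either direction and 4.03% lower. None of the 4 was called in E13.5 2Runx1 by limma, where 0.271% of genes were called; Ppbp and Nfe2 had an unadjusted p under 0.05, and limma-voom on the recovered reads called 0. Both Runx1 groups were set against the same single Ctrl library, whose spread was taken from the groups with replicates. Below that library in both replicates were 8 of the 9 genes in 1Runx1 (all but Itga2b), against 34.6% of 20720 genes. In 2Runx1, 7 of the 9 lay below it (all but Itga2b and Gp1bb), against 30.4% of genes. Above it in either group were 0 of the 9 (33.6% and 31.6% of genes). Gp6 enters these counts on 4 reads in the Ctrl library and 0 to 3 reads in Runx1 libraries. With only the 5 E13.5 libraries in the fit, 0 of the 4 genes were called in E13.5 1Runx1 and 5 genes in all. Between E13.5 2Runx1 and 1Runx1, which do not share a library, limma called 0 of the 4, while 5.33% of genes were called (2.17% higher, 3.16% lower). Pf4, Ppbp, Gp1bb and Gp6 were higher in both 2Runx1 than in both 1Runx1 libraries, against 18.9% of genes. For Gp6 this rests on 3 and 1 reads in 2Runx1 against 0 in 1Runx1. Pf4 and Ppbp had an unadjusted p under 0.05 there, and limma-voom called 0. The log2 difference was 0.55 for Pf4 (95% interval 0.12 to 0.98, limma adjusted p = 0.128) and 0.60 for Ppbp (0.18 to 1.01, adjusted p = 0.0934). Single libraries moved both values: Pf4 differed by 0.89 without 2Runx1 replicate 2 (limma adjusted p = 0.0119) and by 0.21 without 2Runx1 replicate 1 (adjusted p = 0.487). Ppbp differed by 0.96 without 1Runx1 replicate 1 (limma adjusted p = 0.00424) and by 0.23 without 1Runx1 replicate 2 (adjusted p = 0.338).

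At E9.5, limma called 0 of the 4 genes and none had an unadjusted p under 0.05, while 1.19% of all genes were called (0.861% higher, 0.327% lower), and limma-voom called 0. In liver 2Runx1, 1 of the 4 was called (Itga2b, higher) in a comparison that called 25.3% of genes, 17.1% higher and 8.14% lower. In liver, Itga2b was above Ctrl in both 2Runx1 libraries (26.0% of genes) and Pf4 and Gp9 were below (23.0%). At E9.5, Gp1bb and Itga2b lay above both Ctrl libraries in 1Runx1 (20% of genes) and Ppbp and Gp9 below (19.5%). Gp9 had 1 to 5 reads per library at both stages. At E9.5 Ppbp had 0 to 3 reads and Gp1bb 4 to 12, so the order of these genes can be counting error. Effects of 1Runx1 at E13.5 and at E9.5 were compared directly, and 2.26% of genes were called (1.1% lower). The log2 difference between these effects was -1.83 for Ppbp. For 2Runx1 in liver against E13.5 the Ppbp difference was 1.25, with 11.1% of genes called, 8.2% higher and 2.89% lower. The Itga2b effect of 2Runx1 in liver differed from that at E13.5 by 1.17 (95% interval 0.29 to 2.05, limma adjusted p = 0.0913). Ppbp passed the RPKM filter through E13.5 libraries alone and had at most 6 reads per library at E9.5 and in liver. Its differences between stages are therefore the E13.5 difference over again and are given without a test.

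**Figure D2:**
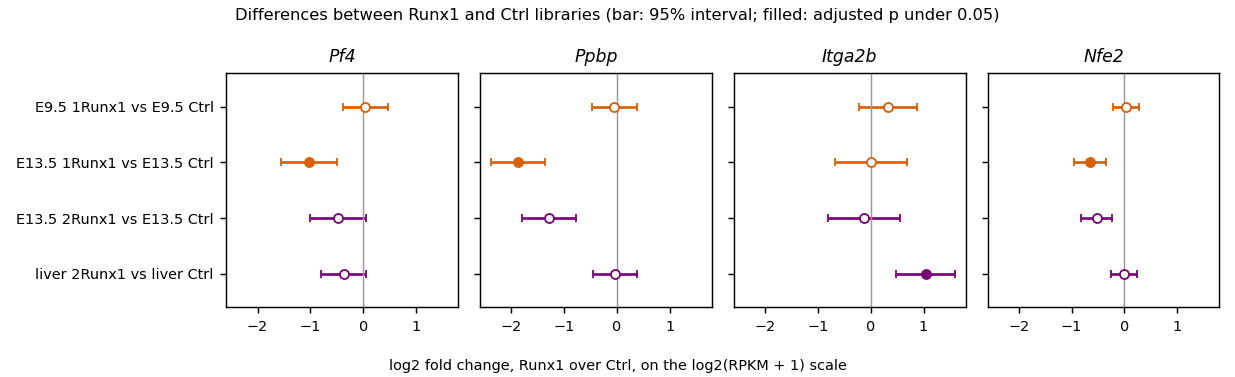
Log2 fold changes (Runx1 over Ctrl, on the log2(RPKM + 1) scale) of the 4 genes tested, with 95% intervals, by comparison; filled dots have a limma adjusted p under 0.05. Filled dots lie left of 0 for Pf4, Ppbp and Nfe2 in E13.5 1Runx1 and right of 0 for Itga2b in liver 2Runx1.

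Several marker lists of other blood and liver cells moved with the same E13.5 libraries, and others did not. The 7 neutrophil genes summed to 14.3 and 7.03 RPKM in E13.5 1Runx1 libraries and to 21.7 and 18.7 RPKM in E13.5 2Runx1 libraries, against 35.4 RPKM in the E13.5 Ctrl library, and none of the 7 was at 0 in all libraries of an E13.5 group. Of the 5 neutrophil genes tested, 3 (S100a9, Ngp and Camp) were called lower in 1Runx1 and 0 in 2Runx1. The 14 erythroid genes summed to 511 and 615 RPKM in 1Runx1 and to 1345 and 655 RPKM in 2Runx1, against 1282 RPKM in Ctrl, and 4 of 10 tested (among them Alas2 and Hemgn) were called lower in 1Runx1 and 1 (Hemgn) in 2Runx1. The adult globin genes Hba-a2, Hbb-bt and Hbb-bs were listed at 0 in all E13.5 libraries. The 9 macrophage genes summed to 40.7 and 32.7 RPKM in 1Runx1 and 36.0 and 53.3 RPKM in 2Runx1, against 54.4 RPKM in Ctrl, with 5 of 9 called lower in 1Runx1 and 1 in 2Runx1; Cd163 was at 0 in 2Runx1 and Ctrl libraries. Of 10 hepatocyte genes, 8 were called lower and 1 (Trf) higher in 1Runx1, and their sums were 209 and 206 RPKM in 1Runx1 and 199 and 287 RPKM in 2Runx1, against 277 RPKM in Ctrl. The 11 endothelial genes summed to 2832 to 2900 RPKM in 1Runx1 and 2729 to 2750 RPKM in 2Runx1, against 2684 RPKM in Ctrl. Ptprc, which encodes the CD45 used to gate out leukocytes, was at 0.0908 to 0.151 RPKM in the 4 Runx1 libraries, against 0.317 RPKM in Ctrl. The 7 pan-leukocyte genes, Ptprc among them, summed to 51.5 and 44.6 RPKM in 1Runx1 and 41.4 and 32.9 RPKM in 2Runx1, against 34.1 RPKM in Ctrl, with Laptm5 called higher and Cd53 and Rac2 lower in 1Runx1. The 6 mast cell and basophil genes summed to 40.3 and 43.2 RPKM in 1Runx1 and 31.0 and 43.6 RPKM in 2Runx1, against 26.6 RPKM in Ctrl, with Kit called higher in 1Runx1 and Fcer1a at 0 in all 5 libraries. Only 2 of these 6 genes passed the filter, and Mcpt8, Fcer1a and Tpsb2 were at 0 in Ctrl. Kit encodes the cKIT used in the sort, so this sum cannot be read as a level of mast cells or basophils. The part of cells of the listed types in the differences of Pf4, Ppbp and Nfe2 was not tested.

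**Figure D3:**
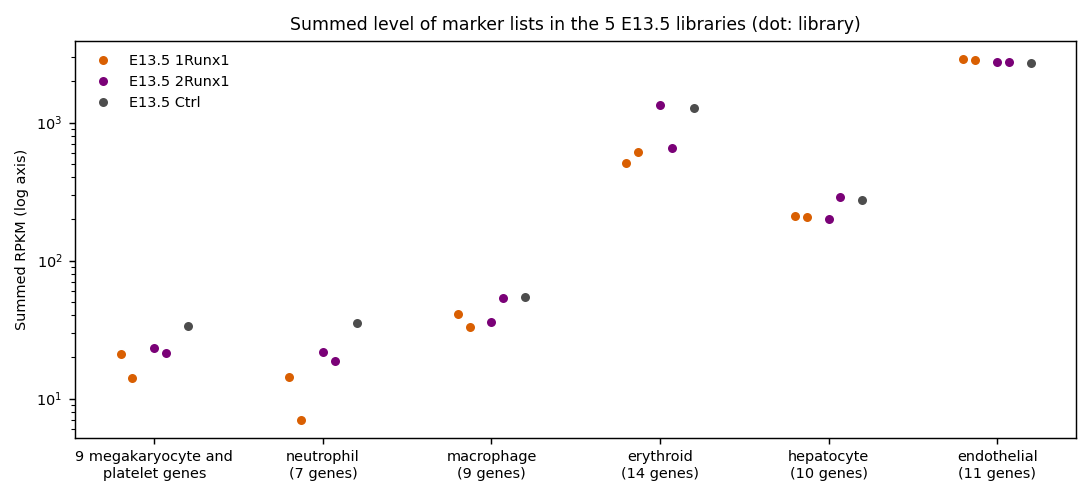
Summed RPKM (log axis) of the 9 megakaryocyte and platelet genes and of 5 marker lists in the 5 E13.5 libraries, a dot for each library. The Ctrl library is highest in the sum of the 9 genes (33.7 against 14.2 to 23.4 RPKM in Runx1 libraries) and in the neutrophil sum (35.4 against 7.03 to 21.7 RPKM), while the endothelial sums lie between 2684 and 2900 RPKM.

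Across stages without added Runx1, all 9 genes were higher in the E13.5 Ctrl library than in both E9.5 Ctrl libraries, as were 42.1% of 20720 genes. Gp6 had 4 reads in the E13.5 Ctrl library and 0 in the E9.5 and liver Ctrl libraries, so it adds little to these counts. Pf4 was called higher at E13.5 (log2 difference 2.93 ± 0.24, SE, limma adjusted p = 7.2e-06), in a comparison that called 48.8% of genes, 22.3% higher. Ppbp (2.42) and Nfe2 (1.32) passed the RPKM filter through E13.5 libraries alone, so their differences from E13.5 are given without a test. Itga2b differed by 0.43 (95% interval -0.25 to 1.11, limma adjusted p = 0.274). In liver Ctrl libraries relative to the E13.5 Ctrl library the 9 genes split: 8 were lower and Pf4 was higher, against 47.0% and 37.1% of genes. Pf4 differed by 1.05 ± 0.24 (limma adjusted p = 0.00190), Nfe2 by -1.64 and Ppbp by -2.34, where 79.3% of genes were called, 40.6% higher and 38.6% lower. Pf4 was 3.98 ± 0.19 higher in liver Ctrl than in E9.5 Ctrl on the log2 scale (limma adjusted p = 5.3e-09), and Nfe2 fell by 0.32 ± 0.11 (adjusted p = 0.0184), with 85.4% of genes called, 42.7% higher and 42.7% lower. Pf4, Ppbp and Gp9 lay above both E9.5 Ctrl libraries in liver Ctrl (36.1% of genes) and Gp1bb, Itga2b and Nfe2 below (40.2%). In these 4 libraries Ppbp had 2 to 5 reads, Gp9 3 to 5 and Gp1bb 0 to 6. Nfe2 was not called in that comparison without E9.5 Ctrl replicate 2 or without liver Ctrl replicate 2 (adjusted p of 0.105 in both). Stage, organ and, for E9.5, strain differ together here and cannot be told apart. Macrophage marker sums were 845 and 846 RPKM in liver Ctrl libraries, against 54.4 RPKM at E13.5 and 2.76 and 2.78 RPKM at E9.5. Mrc1 had the largest rise of that list. Pan-leukocyte sums ran otherwise, at 14.7 and 16.6 RPKM in liver Ctrl libraries, against 34.1 RPKM at E13.5 and 24.3 and 23.3 RPKM at E9.5. Of 6 pan-leukocyte genes tested, 3 were called higher and 2 lower in liver Ctrl than in E13.5 Ctrl. Erythroid sums were 37.1 and 35.8 RPKM in liver Ctrl libraries, against 1282 RPKM at E13.5 and 176 and 178 RPKM at E9.5. Neutrophil sums were 2.79 and 6.86 RPKM in liver Ctrl libraries, against 35.4 RPKM at E13.5 and 1.54 and 1.66 RPKM at E9.5, highest at E13.5 like Ppbp and Nfe2. Which cells carried these marker transcripts, and their part in the stage differences, was not tested.

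Levels of the 9 genes were ordered Itga2b, Pf4, Nfe2 in both E9.5 groups, and Pf4, Itga2b in the E13.5 and liver groups. In E13.5 1Runx1 (Pf4 7.51 and Itga2b 7.30 RPKM on average) these neighbours did not differ beyond their spread. Pf4 and Itga2b held 98.5% to 99.3% of the summed RPKM of the 9 genes in liver libraries and 81.1% to 92.8% in embryonic Runx1 and E9.5 Ctrl libraries, against 68.9% in the E13.5 Ctrl library. By the root mean square difference of centred log2(RPKM + 1) over 13 libraries, the genes most like Ppbp were Ngp (0.21), Itih2 (0.30) and Camp (0.30), of which Ngp and Camp are neutrophil granule genes. Those most like Pf4 were Cpt1a (0.32), Bik (0.38) and Ahr (0.38), those most like Nfe2 were Pip5k1b, Bcl11a and Sptb (0.13 each), and those most like Itga2b were Il12rb1 (0.22), Nectin2 (0.23) and Trp53i13 (0.23).

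Other genes listed for megakaryocytes and platelets moved in both directions. Itgb3 encodes the beta3 chain that pairs with the Itga2b product. Itgb3 had 7.69 and 7.71 RPKM in E9.5 1Runx1 libraries, against 1.19 and 0.938 RPKM in E9.5 Ctrl libraries. It had 3.77 and 3.38 RPKM in E13.5 1Runx1 libraries and 5.15 and 6.62 RPKM in E13.5 2Runx1 libraries, against 0.862 RPKM in the E13.5 Ctrl library. In liver it had 48.2 and 44.4 RPKM in 2Runx1 libraries, against 6.57 and 7.06 RPKM in Ctrl libraries. Runx1 and Ctrl libraries did not overlap at any stage, and Itgb3 rose in all 4 comparisons, by 2.08 ± 0.11 at E9.5, 1.30 ± 0.13 and 1.88 ± 0.13 in E13.5 1Runx1 and 2Runx1, and 2.60 ± 0.11 in liver on the log2 scale (SE, limma adjusted p of 5.2e-06, 5.8e-04, 1.8e-04 and 8.7e-08).

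Of 19 platelet receptor and signalling genes, 13 were tested. These genes are not particular to megakaryocytes: Esam is also in the endothelial list above, and Clec1b averaged 287 RPKM in liver Ctrl and 104 RPKM in E9.5 Ctrl. The 19 genes summed to 1832 and 1853 RPKM in liver Ctrl libraries, against 36.1 and 42.5 RPKM for the 9 genes. Which cells carried the transcripts was not tested, so the calls cannot be assigned to megakaryocytes. At E9.5, 3 were called higher in 1Runx1 (Itgb3, Fcer1g and the ADP receptor gene P2ry1) and 0 lower. At E13.5, 3 were higher in 1Runx1 (Itgb3, Esam and F2rl3, the gene of the thrombin receptor PAR4) and 2 in 2Runx1 (Itgb3 and F2rl3), and 0 were lower in either. In liver, 4 were higher in 2Runx1 (Itgb3, F2rl3, Cd9 and Rasgrp2) and 2 lower (Clec1b and Esam). Beside these counts, 0.861% of all genes were called higher at E9.5, 6.34% higher and 4.03% lower in E13.5 1Runx1, 0.151% and 0.12% in E13.5 2Runx1, and 17.1% and 8.14% in liver. Gp5, which encodes a further subunit of the von Willebrand factor receptor, was below the filter, with 1 and 3 reads in E13.5 1Runx1 and 25 and 21 reads in E13.5 2Runx1, against 44 reads in E13.5 Ctrl, 2 to 7 reads per E9.5 library and 0 in liver. The median log2 difference of these 13 genes was 0.03 at E9.5, 0.20 and 0.10 in E13.5 1Runx1 and 2Runx1, and 0.03 in liver, against 0.01, 0.02, 0.02 and 0.02 over all genes. F2rl3 had 14.4 and 15.7 RPKM in E13.5 1Runx1 libraries and 11.5 and 11.6 RPKM in E13.5 2Runx1 libraries, against 6.46 RPKM in the E13.5 Ctrl library. In liver F2rl3 had 8.96 and 7.68 RPKM in 2Runx1 libraries, against 0.548 and 0.622 RPKM in Ctrl libraries (log2 difference 2.55 ± 0.08, limma adjusted p = 2.5e-08).

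Of 14 transcription factors of megakaryocytes, all were tested and 0 were called at E9.5 by limma. Gata1, the master factor of erythroid and megakaryocyte cells, had 1.78 and 2.52 RPKM in E13.5 1Runx1 libraries and 1.99 and 1.89 RPKM in E13.5 2Runx1 libraries, against 4.37 RPKM in the E13.5 Ctrl library. Gata1 fell by 0.78 ± 0.14 and 0.87 ± 0.14 on the log2 scale (SE, limma adjusted p = 0.00881 and 0.0355), below Ctrl in all 4 libraries like Nfe2 and next to the erythroid genes given above. Gata2 was higher in E13.5 1Runx1 (0.65 ± 0.11, limma adjusted p = 0.00733) and 0 others were called at E13.5. In liver 2Runx1, 3 factors were called higher (Gata2, Etv6 and Meis1) and 1 lower (Mafk), while Gata1 was at 0 RPKM in both 2Runx1 libraries, against 0 and 0.0159 RPKM in Ctrl libraries. Of 16 granule and enzyme genes, 15 were tested: 2 rose at E9.5 (Serpine2 and Ptgs1), 1 rose (Serpine2) and 2 fell (F13a1 and Thbs1) in E13.5 1Runx1, 0 were called in E13.5 2Runx1, and 2 rose in liver (Selp and Pdgfb). Of 8 cytoskeleton genes, 7 were tested: 1 rose in E13.5 1Runx1 (Was), 5 rose in liver 2Runx1 (Was, Flna, Tpm4, Myh9 and Tln1) and 0 were called in the other comparisons with Ctrl. Of all genes, 0.861% were called higher and 0.327% lower at E9.5, and 6.34% and 4.03% in E13.5 1Runx1. The shares were 0.151% and 0.12% in E13.5 2Runx1, and 17.1% and 8.14% in liver. Beside these, the liver counts of the factor and granule lists do not stand out. Which cells carried the transcripts of these lists was not tested either.

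**Figure D4:**
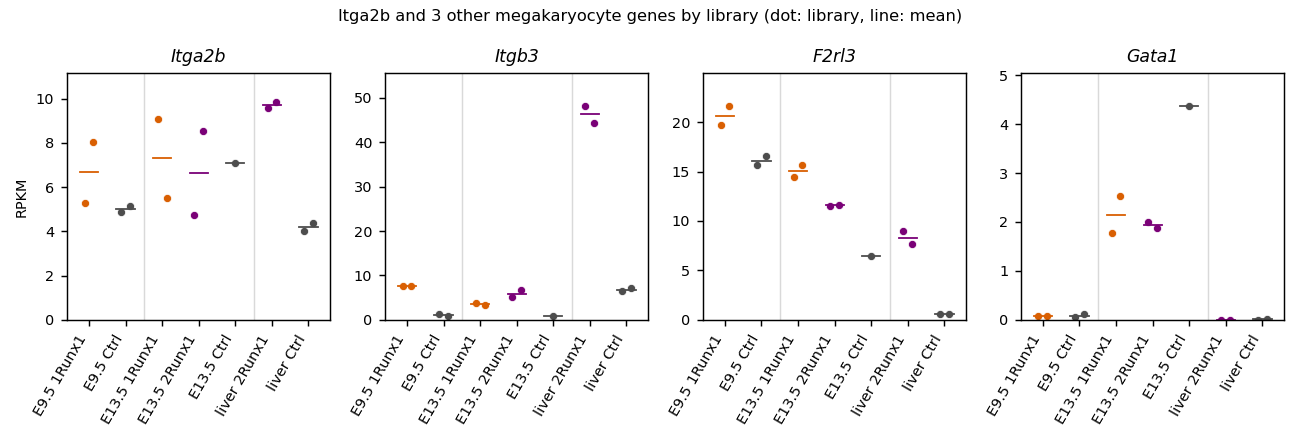
RPKM (linear axis from 0) of Itga2b, Itgb3, F2rl3 and Gata1 in each of the 13 RNA libraries, a dot for a library and a line for the group mean. Itgb3 is higher in Runx1 than in Ctrl libraries at each stage, reaching 48.2 RPKM in liver 2Runx1, whereas Gata1 is highest in the E13.5 Ctrl library (4.37 RPKM).

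Open chromatin was read from ATAC peak lists on mm10, 1 per group with replicates combined, so peaks have no replicate check. Fold enrichments are the authors' values within each list. They are given side by side as descriptions, since lists of different lengths and depths show no change by them. The lists held 80857 to 100268 peaks in embryonic groups and 39469 and 39019 in liver 2Runx1 and liver Ctrl. A peak lay within 10 kb of 7 of the 9 genes in each embryonic list, against 78.5% to 80.5% of all genes. In liver this was 6 of 9 in 2Runx1 and 7 of 9 in Ctrl, against 67.0% and 66.2% of genes. Within 500 bases of the start site, 3 of 8 genes had a peak in E9.5 1Runx1 (Pf4, Itga2b and Gp9), against 2 in E9.5 Ctrl (Pf4 and Itga2b). In E13.5 1Runx1 there were 2 (Pf4 and Tubb1) and in E13.5 2Runx1 3 (Pf4, Itga2b and Gp9), against 1 in E13.5 Ctrl (Pf4). Liver 2Runx1 and liver Ctrl had 1 each (Pf4). The Gp9 peak of E13.5 2Runx1 had its summit 669 bases after the start, against 668 in 1Runx1 and 674 in Ctrl. Only its edge, at 406 bases against 600 in both, crossed the 500-base limit. Within 1 kb of the start, each E13.5 list had a peak for 3 of 8 genes. Of all genes, 49.3% to 64.3% had a start-site peak, and of genes with a mean RPKM under 1 over the 13 libraries 13.4% to 36.2%.

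Pf4 had a peak over its start site in all 7 lists, within chr5:90771807-90772862, with the summit within 79 bases of the start. Its enrichment was 14.5-fold in E9.5 1Runx1 and 10.9-fold in E9.5 Ctrl, 19.3-fold in E13.5 1Runx1, 16.9-fold in E13.5 2Runx1 and 16.4-fold in E13.5 Ctrl, and 15.4-fold in liver 2Runx1 and 14.3-fold in liver Ctrl. It was in the top 8.02% to 25.6% of each list. The E9.5 lists held this peak where Pf4 had 30 to 34 reads per library. Ppbp had no peak at its own start in any list. The nearest shared peak besides that of Pf4 was at chr5:90759094-90759704, from -9424 to -8814 relative to the Ppbp start, in the 5 embryonic lists and in neither liver list. In the E13.5 Ctrl list alone, a 114-base peak of 3.63-fold enrichment lay inside Ppbp, 604 to 717 bases after its start.

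Itga2b had 3 peak regions in all 7 lists: in the gene 2250 to 2912 bases (chr11:102466971-102467633) and 13378 to 14391 bases after the start (chr11:102455492-102456505), and past its end (chr11:102446492-102447962). The first reached 13-fold in E9.5 1Runx1 and 16.9-fold in E9.5 Ctrl, 19.6-fold in E13.5 1Runx1, 19.0-fold in E13.5 2Runx1 and 18.8-fold in E13.5 Ctrl, and 11.3-fold in liver 2Runx1 and 10.5-fold in liver Ctrl. A peak within 500 bases of the start (chr11:102469801-102470359) was listed in 3 groups and spanned the start itself in E9.5 1Runx1. It was 559 bases long with 7.56-fold enrichment in the E9.5 1Runx1 list, 128 bases with 3.38-fold in the E9.5 Ctrl list and 155 bases with 2.54-fold in the E13.5 2Runx1 list, and it was not listed in E13.5 1Runx1, E13.5 Ctrl or liver. Itga2b transcripts were present at 4.03 RPKM or more in all of these groups. The genes Fam171a2 and Gpatch8 also lie within 10 kb of Itga2b, so the region past its end cannot be assigned to Itga2b.

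Gp9 had a region 406 to 964 bases after its start (chr6:87778476-87779034) in the 3 E13.5 lists, with 8.42-fold enrichment in the 1Runx1 list, 9.02-fold in the 2Runx1 list and 8.04-fold in the Ctrl list, and in no E9.5 or liver list. A peak of 108 bases (3.54-fold), from -180 to -73 relative to the start and over the first RUNX letters shown above, was listed only in E9.5 1Runx1, where Gp9 had 1 read in each library. Tubb1 had a weak start-site peak (3.64-fold) in E13.5 1Runx1 only, and a region 13121 to 13839 bases after its start in all 7 lists with 18.7-fold to 30.7-fold enrichment; the genes Atp5e and Prelid3b also lie within 10 kb of Tubb1. Nfe2 had 3 to 6 peaks per list, among them a region at one end of the gene (chr15:103258209-103258751) in all 7 lists. The genes Cbx5 and Hnrnpa1 also lie within 10 kb of Nfe2. Gp1bb had none at its start and 2 to 6 peaks within 10 kb per list. No list had a peak within 10 kb of Treml1, and Gp6 had 1 (4.23-fold) in liver Ctrl only.

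**Figure D5:**
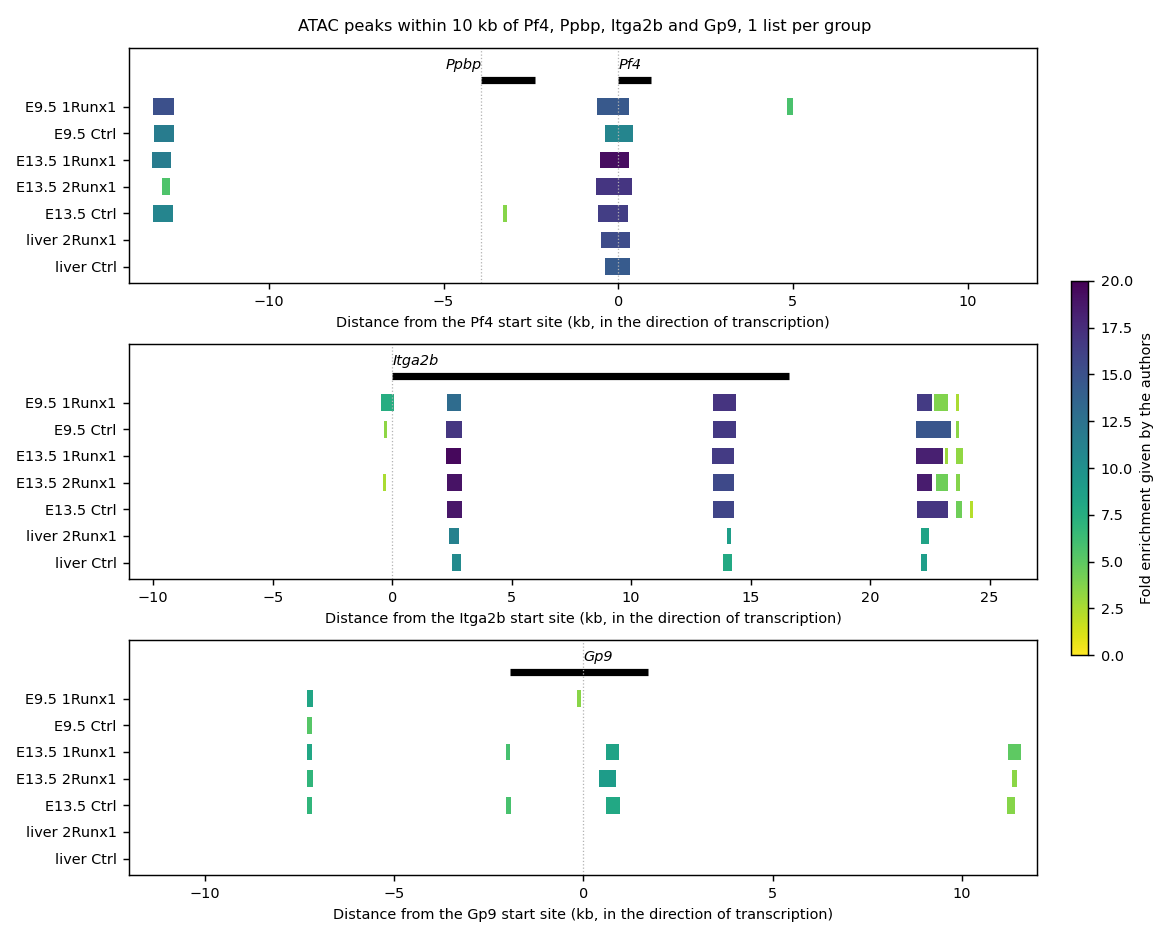
ATAC peaks within 10 kb of Pf4, Ppbp, Itga2b and Gp9 in the 7 peak lists, by distance from a start site in kb along the gene, coloured by the authors' fold enrichment; black bars are the genes and dotted lines the start sites. The Pf4 start site is covered in all 7 rows, a peak lies within 500 bases of the Itga2b start in 3 rows and spans it in E9.5 1Runx1, and the Gp9 region 406 to 964 bases after its start is in the 3 E13.5 rows.

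Most peaks near the 9 genes were shared between Runx1 and Ctrl lists of a stage (at least 1 base). Of 28 peaks in E9.5 1Runx1, 23 overlapped a peak of E9.5 Ctrl, and 21 of 22 the other way. Of 25 peaks in E13.5 1Runx1, 23 overlapped one of E13.5 Ctrl (22 of 26 the other way), and of 23 in E13.5 2Runx1, 21 did (21 of 26). In liver, 11 of 13 peaks in 2Runx1 and 11 of 12 in Ctrl were shared. A stricter rule set a minimum overlapping share of each peak. By it, 17 of 28 peaks in E9.5 1Runx1 were shared (17 of 22 the other way). The counts were 22 of 25 in E13.5 1Runx1 (22 of 26) and 17 of 23 in E13.5 2Runx1 (17 of 26). In liver they were 10 of 13 in 2Runx1 and 10 of 12 in Ctrl. The shared part of all peaks in the lists is not given here, so these counts set the 9 genes apart from no others.

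H3K4me1, a histone mark of enhancers and of the flanks of active promoters, was measured at E13.5 in 2Runx1 and Ctrl. In the 2Runx1 set, the descriptions name each other's file for the input and for ChIP replicate 1, and the peak list is used as labelled. Regions lay within 10 kb of 7 of the 9 genes in both lists, against 74.4% of genes in 2Runx1 and 62.4% in Ctrl. At the start site there were 4 of 8 in 2Runx1 (Pf4, Gp1bb, Gp9 and Itga2b), against 2 of 8 in Ctrl (Pf4 and Gp9), next to 50.6% and 27.7% of all genes. The Ctrl region of Gp1bb began 510 bases after the start, just past the limit, and within 1 kb the counts were 4 and 3. At a −log10 q of at least 5 both counts were 0. The 2Runx1 list was also longer, with 88344 regions against 48795 in Ctrl.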

How the data were processed

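RNA libraries were made from polyA RNA, and the authors deposited 1 table of RPKM values per gene for all 13; per the submitters' processing notes, reads were handled with STAR 2.7.3a and featureCounts of Subread 2.0.0 on mm10 (GRCm38). The peak lists deposited by the authors, 1 per group with replicates combined, give a fold enrichment over background, a −log10 q and a display score per peak, with Bowtie2 2.3.5.1 and MACS2 2.1.4 named in the same notes.

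The RPKM values were whole multiples of 1 read for 20720 of 20720 genes above 0 (100%, tolerance 0.001 reads), which gave 37754246 to 44540403 reads per library. The library sizes behind the RPKM values did not follow these totals alone. Per recovered read, and relative to the geometric mean of the 13 libraries, they were 0.828 to 0.844 in liver and 1.03 to 1.13 in embryonic libraries. Tests used limma 3.58.1 (R 4.3.3) on log2(RPKM + 1) with 7 group means, a mean trend and Benjamini-Hochberg adjustment over 12546 genes. With 6 residual degrees of freedom the design is small, and a count of 0 reads allows up to 3 reads. Counting floors cover counting error only. A limma-voom fit on the recovered reads, other pseudocounts, filters and scalings, a replicate block and leaving out each library were tried. Peaks were taken within 10 kb of a gene and 500 bases of a start with Python 3.11.15 and pandas 2.3.3. The fits were tested on simulated data.

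The 9 genes, the other gene lists and the tests were chosen with earlier results of these data known. All 9 genes are named, with called genes of each list (up to 8), the 3 genes nearest in pattern, and the strongest and nearest peaks. Genes added for contrast (Septin5, Ptprc) were chosen after their values were seen. ATAC and H3K4me1 signal per replicate was not analysed here. Some single-gene values of the related lists are not reported here.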

Additional observations from a re-analysis of the deposited data

Results flagged for a closer look

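Effects of Runx1 were compared between stages by a limma test of the difference itself, with Benjamini-Hochberg adjustment. A difference was called for 1 of the 9 genes (Ppbp) and for several genes of the related lists, Gata1 among them. Ppbp and Gata1 passed the RPKM filter through E13.5 libraries alone, so their calls do not count as tests. For 1Runx1 at E13.5 against E9.5, the log2 difference of effects was -1.83 for Ppbp, -0.78 for Itgb3 (limma adjusted p = 0.0467) and 0.77 for F2rl3 (adjusted p = 0.0238). For 2Runx1 in liver against E13.5 it was 1.25 for Ppbp and 0.86 for Gata1. It was 0.72 for Itgb3 (limma adjusted p = 0.0227) and 1.80 for F2rl3 (adjusted p = 2.0e-05). In the same comparison it was 0.98 for Cd9 (limma adjusted p = 0.0224), -0.76 for Vwf (adjusted p = 0.0300), -0.41 for Clec1b (adjusted p = 0.00455) and 0.69 for Tpm4 (adjusted p = 0.00193). Gata1 was at or near 0 in all liver libraries, and Ppbp had at most 6 reads per library in liver and at E9.5. Their differences between stages are therefore the E13.5 differences over again and no separate evidence of a stage effect. Neither Ppbp difference was called at a pseudocount of 0.1, with only the stages' libraries, with limma-voom or with a replicate block. Every E13.5 effect rests on the same single Ctrl library.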

How the results depend on the processing

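No direction of a called gene reversed under any alternative run. Of the 4 genes tested, the number called in E13.5 1Runx1 against Ctrl was 3, with 1300 of 12546 genes called in all. It was 5 of 9 tested with no filter on low values (1267 of 20720 genes). With limma-voom on genes with at least 10 reads (chosen after seeing the data) it was 5 of 8 tested (1562 of 16285 genes). With only the libraries of the stages compared it was 0. Pf4 was lost without 1Runx1 replicate 2 (-0.82, limma adjusted p = 0.0717), and Nfe2 at a pseudocount of 0.1 (adjusted p = 0.0909). In E13.5 2Runx1 the count was 0 (34 of 12546 genes). It was 2 with no filter (Gp9 and Treml1, with 149 of 20720 genes) and 1 with quantile normalization (Ppbp, with 48 of 12546 genes). For 2Runx1 against 1Runx1 it was 0, but 1 with a replicate block and 0 to 1 with a library left out. In liver 2Runx1 it was 1, but 2 with only the stage's libraries, 2 with the replicate block (Pf4, lower, added in both) and 0 with any library left out. For E13.5 Ctrl against E9.5 Ctrl and for liver Ctrl against E13.5 Ctrl it was 3, but 8 with no filter and 7 with limma-voom at 10 reads. These 3 include Ppbp and Nfe2, which passed the filter through E13.5 libraries alone, so only the Pf4 call counts as a test there. Of all genes, 48.8% and 79.3% were called in these comparisons where the count was 3. With no filter these were 6716 and 11909 of 20720 genes, and with limma-voom at 10 reads 7185 and 11879 of 16285. For liver Ctrl against E9.5 Ctrl it was 2, but 1 with quantile normalization, 1 with the replicate block, 3 with limma-voom at 10 reads (Gp1bb added, -2.26, adjusted p = 0.0414) and 1 to 2 with a library left out. For both differences between stages, where only Ppbp was called and does not count as a test, it was 1. That became 0 with a pseudocount of 0.1, with only the stages' libraries, with limma-voom, with limma-voom at 10 reads and with the replicate block, 3 (1Runx1) and 2 (2Runx1) with no filter, and 0 to 2 with a library left out. Start-site peaks were 1 in E13.5 1Runx1 at a −log10 q of at least 5, against 2, and 3 in E13.5 Ctrl within 1 kb, against 1. The cause of these changes was not tested, except that without the filter 9 genes in place of 4 could be called, and 8 with limma-voom at 10 reads. Without the filter, 276 (1Runx1) and 1267 (2Runx1) of 20720 genes were called in the differences between stages. For liver Ctrl against E9.5 Ctrl, limma-voom at 10 reads called 12692 of 16285 genes.

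Over all genes, fits on the stage's libraries alone called 37 in place of 149 at E9.5, 5 in place of 1300 in E13.5 1Runx1, 0 in place of 34 in E13.5 2Runx1 and 9 in place of 669 between 2Runx1 and 1Runx1. Without 2Runx1 replicate 1, 256 genes were called in E13.5 2Runx1. In liver 2Runx1, 1978 genes in place of 3170 were called without 2Runx1 replicate 1. Calls between stages ranged over 39 to 452 (284 with all libraries) for 1Runx1 and 811 to 1583 (1392) for 2Runx1. Deviations of same-numbered libraries from their group means had correlations of -0.06, -0.05 and 0.11. These show little common deviation, but whether same-numbered libraries share a litter or batch is not in the labels. Few reads for Gp6, Treml1, Gp1bb and Tubb1 and a single E13.5 Ctrl library limit what can be said of these genes.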
